A study of Mus musculus with 4 samples.

Results

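Open chromatin was examined at 10 genes of the MLL complex and of the proteins that it meets in leukemia: Kmt2a, Men1, Psip1, Dot1l, Mllt1, Mllt3, Mllt10, Aff1, Aff4 and Jmjd1c. They were chosen by name, with earlier results of these data known, as 10 of 21755 protein-coding genes on the autosomes and X. Every deposited peak and hotspot in the gene body or within 50 kb on either side was taken, in windows that together spanned 2012 kb of the mouse assembly mm10.

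The samples were cells of a mouse acute myeloid leukemia (AML) on the C57BL/6J strain, profiled in 4 DNase-seq libraries. DNase-seq cuts accessible DNA in nuclei with DNase I and sequences the cut ends. The labels call the material in vitro differentiated cells, give 1 donor identifier for all libraries, name no treatment, time point or control, and state no driver mutation, so whether these cells carry a fusion of Kmt2a was not known here. The authors pooled 2 libraries in each of 2 biological replicates and deposited 1 list of peaks and 1 list of hotspots per replicate. The labels number the biological replicates and do not say whether they came from separate cultures, so the difference between them may be technical.

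Kmt2a encodes MLL1, a methyltransferase that places methyl groups on lysine 4 of histone H3 at promoters. Menin (Men1) and LEDGF (Psip1) tether MLL1 to chromatin, and in human leukemia chromosome breaks join the front part of MLL1 to partners such as AF4 (Aff1), AF9 (Mllt3), ENL (Mllt1), AF10 (Mllt10) and AF5q31 (Aff4). These partners belong to complexes that release paused RNA polymerase II or that bring in DOT1L, the methyltransferase of lysine 79 of histone H3. JMJD1C (Jmjd1c), a protein with a jumonji domain of the demethylase type, is included for its tie to the growth of leukemia cells and not as a fusion partner.

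A peak is a 150 bp window with a whole-number score from the authors, and its scale and the sequencing depth were not known. Replicate 1 had 236215 peaks on the chromosomes with a median score of 74, and replicate 2 had 67438 with a median of 35. Of the replicate 1 peaks, 26.1% overlapped a replicate 2 peak by at least 1 bp and are called shared, and 91.9% of the replicate 2 peaks overlapped one of replicate 1. Because the scales may differ, the strength of a peak is also given as its percentile, its rank within its own list with ties averaged, where 100 is the top. The cell type label was set against marker promoters: 9 of 10 myeloid genes had a shared promoter peak (Spi1 scored 150 and 94, Cebpa 148 and 97), and Elane had one in replicate 1 alone. No promoter of 3 hepatocyte genes had a peak, while a shared one was also found at Pax5 (1 of 4 B cell genes), Lck (1 of 4 T cell genes), Col1a1 (1 of 3 fibroblast genes) and Cdh5 (1 of 3 endothelial genes). The part of other cells in the values below was not tested.

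All 10 members had a shared peak within 1 kb of an annotated transcript start, the stretch called a promoter here. Over all protein-coding genes the share was 58.2% (12658 of 21755), with 71.1% having a promoter peak in the replicate 1 list and 58.8% in the replicate 2 list. The strongest shared promoter peak of a member had a mean percentile over both lists between 84.4 and 98.7, with a median of 96.1, against a median of 92.8 over the 12658 genes with such a peak.

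Among the MLL1 subunit and its tethers, Kmt2a itself had the promoter peak with the highest mean percentile, while in replicate 1 alone Men1 scored higher. The Kmt2a gene lies on the minus strand at chr9:44803355-44881296, and its main peak, 155 bp upstream of the first start, scored 147 in replicate 1 and 97 in replicate 2 (percentiles 97.4 and 98.1). It sat in a hotspot 3741 bp wide in replicate 1 and 1594 bp wide in replicate 2, the widest in the Kmt2a window in each list. Men1, on the plus strand at chr19:6334979-6340891, had its main peak 68 bp upstream of the start with scores of 149 and 86. Psip1, on the minus strand at chr4:83455680-83486459, scored 129 and 59 at its main peak (percentiles 88.0 and 80.8). The Psip1 promoter was thus the weakest of the 10 in both lists, and it was joined by a second shared peak of 132 and 54 in exon 2.

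Among the DOT1L group, the Mllt1 and Dot1l promoters ranked near the top of both lists, and Mllt10 is described below with the internal starts. Mllt1, on the minus strand at chr17:56892611-56935415, had the highest mean percentile of the members, with scores of 148 and 103 at a peak 176 bp upstream of its start. Dot1l, on the plus strand at chr10:80755206-80795461, scored 149 and 97 at a peak 115 bp upstream. Mllt3, on the minus strand at chr4:87769925-88033364, scored 144 and 85 over its start. Its mean percentile of 94.7 lay nearer the median of 92.8 over genes with a shared promoter peak. The hotspot over the Mllt3 start was 2973 bp wide in replicate 1 and 366 bp wide in replicate 2, and each was the widest in the Mllt3 window.

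The peaks at the Mllt1, Dot1l, Kmt2a and Psip1 promoters, the 3 strongest and the weakest of the members, are printed to show what such a window holds. They are chr17:56935516-56935665, chr10:80755016-80755165, chr9:44881376-44881525 and chr4:83486476-83486625 (mm10), each on the strand of its gene from 5′ to 3′, with CpG dinucleotides in capitals. The Dot1l window held 28 CpGs, those of Mllt1 and Kmt2a 19 each and that of Psip1 12.
Mllt1 promoter: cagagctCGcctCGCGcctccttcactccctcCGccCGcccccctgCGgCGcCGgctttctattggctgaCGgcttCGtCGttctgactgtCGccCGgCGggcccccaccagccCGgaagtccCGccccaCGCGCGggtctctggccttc
Dot1l promoter: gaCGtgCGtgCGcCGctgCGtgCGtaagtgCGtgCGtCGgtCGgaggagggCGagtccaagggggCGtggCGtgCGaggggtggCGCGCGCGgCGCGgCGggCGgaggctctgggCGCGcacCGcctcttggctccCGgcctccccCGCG
Kmt2a promoter: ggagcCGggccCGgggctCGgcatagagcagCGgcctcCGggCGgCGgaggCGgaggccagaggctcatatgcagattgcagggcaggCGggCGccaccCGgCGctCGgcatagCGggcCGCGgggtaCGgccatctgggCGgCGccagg
Psip1 promoter: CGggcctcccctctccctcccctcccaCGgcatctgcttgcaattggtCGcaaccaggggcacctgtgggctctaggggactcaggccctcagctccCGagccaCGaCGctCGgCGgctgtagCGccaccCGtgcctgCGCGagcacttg
The Mllt1 window also held the ETS consensus CCGGAAGT, which was found in 4.37% of the 19651 shared promoter peaks of all genes. The other 3 windows matched none of the 16 consensus sequences searched.

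**Figure D1:**
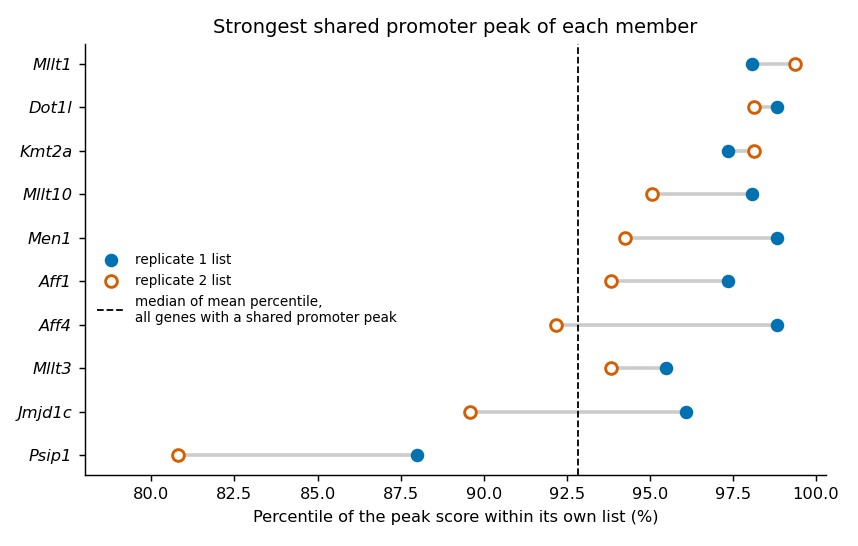
Percentile of the score of the strongest shared promoter peak of each member within the replicate 1 list (filled) and the replicate 2 list (open), with the members ordered by the mean of both. The dashed line is the median mean percentile of all genes with a shared promoter peak, 92.8; of the 10 members, only Psip1 had both values below it.

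The members differed in how many of their annotated starts lay in open chromatin. Annotated starts of a gene were joined where they lay within 500 bp, which gave 41 clusters over the 10 members, of which 15 held a shared peak within 1 kb, 6 a peak in replicate 1 alone and 20 no peak. Of the 10 clusters at the 5′ end of a gene, 9 held a shared peak, against 6 of the 31 clusters further along. Over all coding genes, 53.2% had a shared peak within 1 kb of the outermost start. No such share was computed for later clusters, so whether this contrast is particular to the members was not tested.

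Aff1 was the only member whose clusters all held a shared peak within 1 kb. Aff1 lies on the plus strand at chr5:103692374-103855322. Its 5′ start scored 147 and 85, its second start, 61.8 kb further along, 146 and 66, and the third start, at 92.0 kb, 119 and 24. The first 2 stood far above the median score of their lists, while the third start lay at percentile 25.2 of the replicate 2 list. Aff4, on the plus strand at chr11:53350833-53421830, had a shared peak at its 5′ start alone, with scores of 149 and 81, and no peak in either list at its 5 later clusters.

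At Mllt10 and Jmjd1c, internal starts carried strong peaks. Mllt10, on the plus strand at chr2:18055237-18212388, had a peak in replicate 1 alone at its 5′ start, with a score of 71, 454 bp downstream of it. Its main peak lay at the second start, 9.16 kb further along, with scores of 148 and 88, and 7 of its transcripts start there. Jmjd1c, on the plus strand at chr10:67096125-67256326, scored 145 and 75 at the 5′ start, which lies within 1 kb of a start of Reep3, and 147 and 72 at the third start, 89.6 kb further along. At the second start, 31.1 kb from the 5′ end, where the principal transcript begins, Jmjd1c had peaks in replicate 1 alone, the strongest of which scored 133 at percentile 89.9. No replicate 2 peak or hotspot lay there, although that replicate 1 score was higher than the 129 of the Psip1 promoter, which replicate 2 did share.

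Peaks at internal starts are printed for Aff1 and Jmjd1c, together with the strongest peak of Mllt10 outside any coding promoter, since these windows differ in CpG content. They are chr5:103754056-103754161, chr10:67185616-67185749 and chr2:18056556-18056705 (mm10, plus strand, CpG in capitals), and the first 2 are cut where an annotated untranslated region begins.
Aff1 second start: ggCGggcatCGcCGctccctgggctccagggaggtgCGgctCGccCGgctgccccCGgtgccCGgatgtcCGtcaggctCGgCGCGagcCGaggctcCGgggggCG
Jmjd1c at 89.6 kb: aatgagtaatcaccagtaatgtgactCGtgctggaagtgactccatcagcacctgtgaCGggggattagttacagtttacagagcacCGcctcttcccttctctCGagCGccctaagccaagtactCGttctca
Mllt10 intron 1: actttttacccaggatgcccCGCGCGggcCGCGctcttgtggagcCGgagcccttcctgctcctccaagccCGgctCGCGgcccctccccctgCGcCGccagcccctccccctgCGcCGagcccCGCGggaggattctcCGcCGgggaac
The Aff1 stretch of 106 bases held 15 CpGs and the Mllt10 window of 150 bases 17, while the Jmjd1c stretch of 134 bases held 6. The Mllt10 window, in intron 1 and 1.39 kb downstream of the first start, scored 149 and 89 and lies within 1 kb of a start of the noncoding gene 1810059C17Rik. A neighbouring window there scored 149 and 88, so the strongest signal near the Mllt10 5′ end lay between its first 2 starts.

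**Figure D2:**
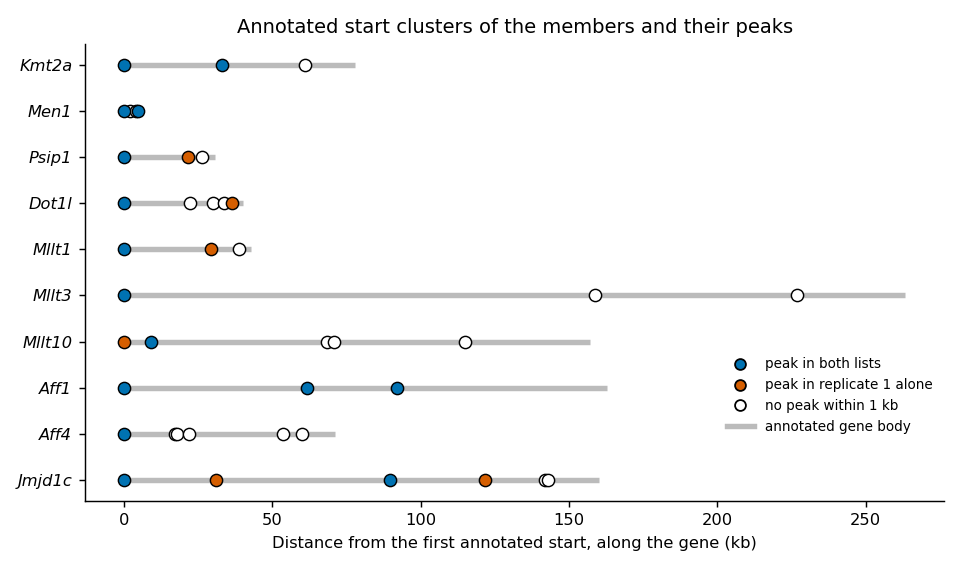
Annotated start clusters of each member along its gene body, in kb from the 5′ start, coloured by whether a peak within 1 kb was found in both lists, in replicate 1 alone or in neither. The 5′ cluster held a shared peak in every member but Mllt10, and 20 of the 31 later clusters held no peak. Aff1 alone had a shared peak within 1 kb of every later cluster, the last of them 908 bp from its start.

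From exon 3 on, the peaks and hotspots inside Kmt2a lay on or across exons. Replicate 1 had 5 hotspots in that stretch, and all 5 touched an exon, namely exons 3, 4, 9 and 11. These hotspots held 2876 bases of exon and 787 of intron, so that 78.5% of the hotspot bases were exonic, while exons made up 32.2% of that stretch of the gene. The median of that exonic share was 4.63% over the 12691 coding genes with any such hotspot base, among which Kmt2a stood at percentile 93.5. At Men1 all such bases were exonic, but they lay in its last exon, exon 10, whose peaks lie within 1 kb of a start of Map4k2. The stretch of Kmt2a was singled out after its values were seen, and the share is given as a description.

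Exon 3 of Kmt2a, a coding exon of 2651 bp, was the clearest case. In replicate 1 it held 7 peaks, with scores between 55 and 92, and 2 hotspots filled 92.3% of it, reaching 42 bp beyond its 5′ edge and 47 bp beyond its 3′ edge. Exon 4, of 178 bp, was filled by a hotspot that ended 41 and 56 bp beyond its edges. In replicate 2 exon 3 had 2 peaks, which scored 17 and 22, and 2 hotspots over 13.2% of its bases, and exon 4 had none. Exon 11 was filled in both lists, with a shared peak of 105 and 28 that matched the CTCF consensus. Of 256 internal coding-gene exons of at least 2000 bp, from the third exon on, 183 had no base in a replicate 1 hotspot and 2 were filled to 90% or more, Kmt2a exon 3 and exon 6 of Prr36.

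A noncoding Kmt2a transcript is annotated to start inside exon 3, 33.1 kb from the 5′ start, so part of these peaks count as promoter peaks above. Both shared windows of exon 3 are printed on the minus strand, at chr9:44847476-44847625 and chr9:44847776-44847925 (mm10), because they are coding sequence rather than a CpG-rich start. Capitals mark matches to the PU.1-type ETS consensus GAGGAAGT, read here as its reverse complement, and to the IRF consensus, a pair of GAAA blocks 2 letters apart, found at 2 overlapping places.
Kmt2a exon 3, chr9:44847476-44847625: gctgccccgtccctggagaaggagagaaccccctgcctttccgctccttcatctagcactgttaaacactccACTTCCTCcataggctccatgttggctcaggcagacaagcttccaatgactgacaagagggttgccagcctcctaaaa
Kmt2a exon 3, chr9:44847776-44847925: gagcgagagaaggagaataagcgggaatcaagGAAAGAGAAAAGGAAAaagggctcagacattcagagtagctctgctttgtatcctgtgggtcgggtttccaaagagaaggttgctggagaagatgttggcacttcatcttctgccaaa
These windows held 2 and 3 CpGs, against 19 at the Kmt2a promoter. Whether the exonic signal came from the chromosomal gene or from another copy of its coding sequence was not tested.

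**Figure D3:**
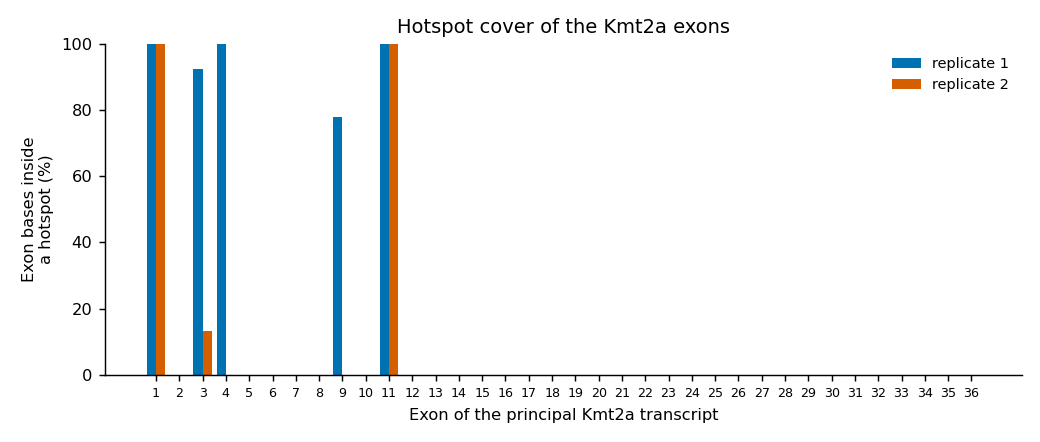
Percent of the bases of each of the 36 exons of the principal Kmt2a transcript that lay inside a hotspot, for replicate 1 and replicate 2. Bars stand at exons 1, 3, 4, 9 and 11 in replicate 1 and at exons 1, 3 and 11 in replicate 2, and exons 12 to 36 have none.

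Outside the promoters of all coding genes, the member windows held 379 peaks in the replicate 1 list and 81 in the replicate 2 list, and 79 replicate 1 windows were shared. The median member had 8 shared peaks outside promoters, in a range of 1 to 14, against a median of 3 over all coding genes. The members are long genes, with a median of 74.5 kb against 17.4 kb, and over the 2489 genes of at least 100 kb the median was 5. Per 100 kb of window the members had a median of 4.64 shared peaks, and all coding genes 2.55. Hotspots covered a median of 10.6% of a member window in replicate 1 and 2.91% in replicate 2, against 6.65% and 1.70% over all coding genes. Many of these peaks need not belong to the member: 46 of the 79 had a member start as their nearest coding start, and 35 lay in a member gene body.

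By that density the members fell into distinct ranges. Mllt1 had 8.40 and Dot1l 7.84 shared peaks per 100 kb, percentiles 96.2 and 95.02 of all coding genes. Mllt10, Jmjd1c, Men1 and Aff1 lay between 4.56 and 5.44, and Psip1 and Kmt2a at 2.29 and 2.25. Mllt3 had 0.825 and Aff4 0.585, percentiles 24.3 and 21.1. The ranking in the replicate 1 list alone differed, with Men1 at 39.7 peaks outside promoters per 100 kb (percentile 99.2) and Jmjd1c at 33.8 (percentile 97.9) in front, because 37 of 42 such peaks at Men1 and 74 of 88 at Jmjd1c had no replicate 2 partner.

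**Figure D4:**
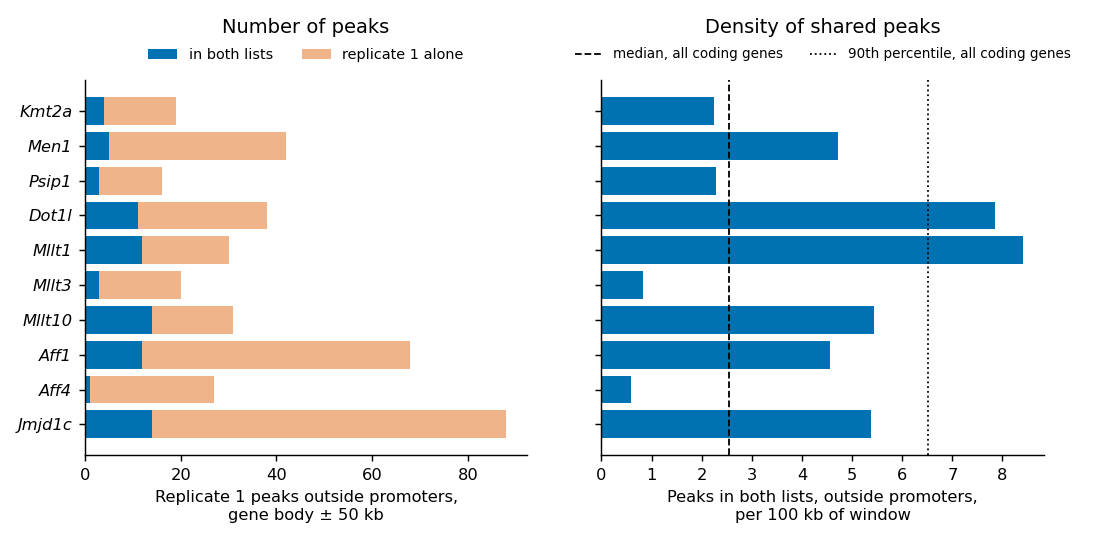
Left, number of replicate 1 peaks outside coding promoters in the window of each member, split into those in both lists and those in replicate 1 alone. Right, shared peaks outside promoters per 100 kb of window, with the median (2.55) and 90th percentile (6.51) of all coding genes; only Dot1l and Mllt1 pass the second line.

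At Kmt2a, the strongest shared peak outside coding promoters lay 1.46 kb upstream of the 5′ start and scored 130 and 41. It lies within 1 kb of a start of the noncoding gene AC061963.1. In replicate 1 it sat in the same 3741 bp hotspot as the Kmt2a promoter, and in replicate 2 in a separate one of 356 bp. The peak in exon 11 was next, with 105 and 28, and then a peak 35.1 kb upstream, in an exon of Atp5l, with 101 and 26. Kmt2a therefore had a single shared peak in its gene body that was outside every promoter. At Men1, a window 30.0 kb upstream, near the start of Cdc42bpg, scored 142 and 75. A window 35.3 kb upstream of Men1, in an exon of Ehd1, scored 135 and 52, and another, 3.19 kb upstream, 123 and 43. The Men1 window is crowded, with starts of 5 other coding genes, and peaks of 144 and 49 and of 139 and 46 in exon 10 of Men1 lie within 1 kb of a start of Map4k2 as well.

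Psip1 had few peaks beyond its promoter. The strongest, 78.5 kb downstream of the start and beyond the gene, scored 137 and 31, and 2 upstream windows with a CTCF match scored 105 and 34 and 80 and 17. All 3 had the start of a neighbour, Snapc3 or Ccdc171, as their nearest coding start.

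Dot1l and Mllt1 were flanked by strong peaks. A run of 5 shared peaks stood between 2.96 and 10.7 kb upstream of Dot1l, and the strongest of them scored 145 and 72, 144 and 61, and 145 and 55. The first and the last of these share a hotspot of 1786 bp in replicate 1 and of 1423 bp in replicate 2, the widest in the Dot1l window in replicate 2. Dot1l also had 4 shared peaks in introns 1 and 7, with scores of 112 to 142 in replicate 1 and 34 to 53 in replicate 2. At Mllt1, a window 22.7 kb upstream, in an intron of Acer1, scored 149 and 81 (percentiles 98.8 and 92.2), inside the widest hotspot of its window in each list (2020 and 925 bp). It lies within 1 kb of a start of the noncoding gene AC073683.1. Next at Mllt1 came a window 51.5 kb downstream of the start, with 130 and 54, and one in intron 6, with 123 and 56 and a CTCF match.

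Mllt3 and Mllt10 differed. Mllt3 had 3 shared peaks along 263 kb, all intronic: 120 and 20 in intron 2, 82 and 18 in intron 5, and 58 and 13 in intron 8. All 3 lay at or below percentile 15.1 of the replicate 2 list, and the strongest Mllt3 peak in replicate 1 alone, 114 in intron 2, lay 90.2 kb from the start, beside the first of them at 88.8 kb. Mllt10 had 14 shared peaks outside promoters, and 20 of all 40 replicate 1 peaks in its window were shared, the highest share of the members. The 14 depended on the settings: it was 9 with a reciprocal overlap of at least 50%, 6 with lists of equal length and 4 with peaks at or above the median score. Besides the 2 in intron 1, the strongest lay 27.6 kb upstream in an exon of A930004D18Rik, with 142 and 69.

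At Aff1, Aff4 and Jmjd1c, 17.6%, 3.70% and 15.9% of the replicate 1 peaks outside promoters were shared. That share was 20.8% over all member windows and 22.0% over the whole list. Men1 (11.9%) and Mllt3 (15.0%) lay below Aff1 and Jmjd1c. Aff1 had 12 shared peaks outside promoters, led by windows 11.8 kb and 37.9 kb upstream (112 and 52, 111 and 43) and 1 in intron 6 (110 and 43). Its strongest peak in replicate 1 alone scored 142, at percentile 94.4 of that list, 54.6 kb inside the gene and ahead of the second start. Peaks of 135, 136, 138 and 128 stood between 68.6 and 71.0 kb, past the second start, and also had no replicate 2 partner. The score of 142 was higher than the replicate 1 score of any of the 12 shared peaks, which reached 140. Aff4 had 1 shared peak outside promoters, 116 kb downstream of the start in an exon of Shroom1, with 115 and 47, and its strongest in replicate 1 alone scored 104 in exon 20.

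Jmjd1c had 14 shared peaks outside promoters, 7 of them upstream, in introns of Reep3. The strongest scored 150 and 63 at 2.49 kb inside the gene, 149 and 61 at 26.9 kb upstream and 140 and 57 at 47.0 kb upstream. The first scored the maximum of the replicate 1 list and lay at percentile 83.5 of the replicate 2 list. Jmjd1c also had the largest number of peaks in replicate 1 alone outside promoters, 74, with scores of up to 135 and a median of 87, against a median of 70.5 for the 300 such peaks of all members.

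**Figure D5:**
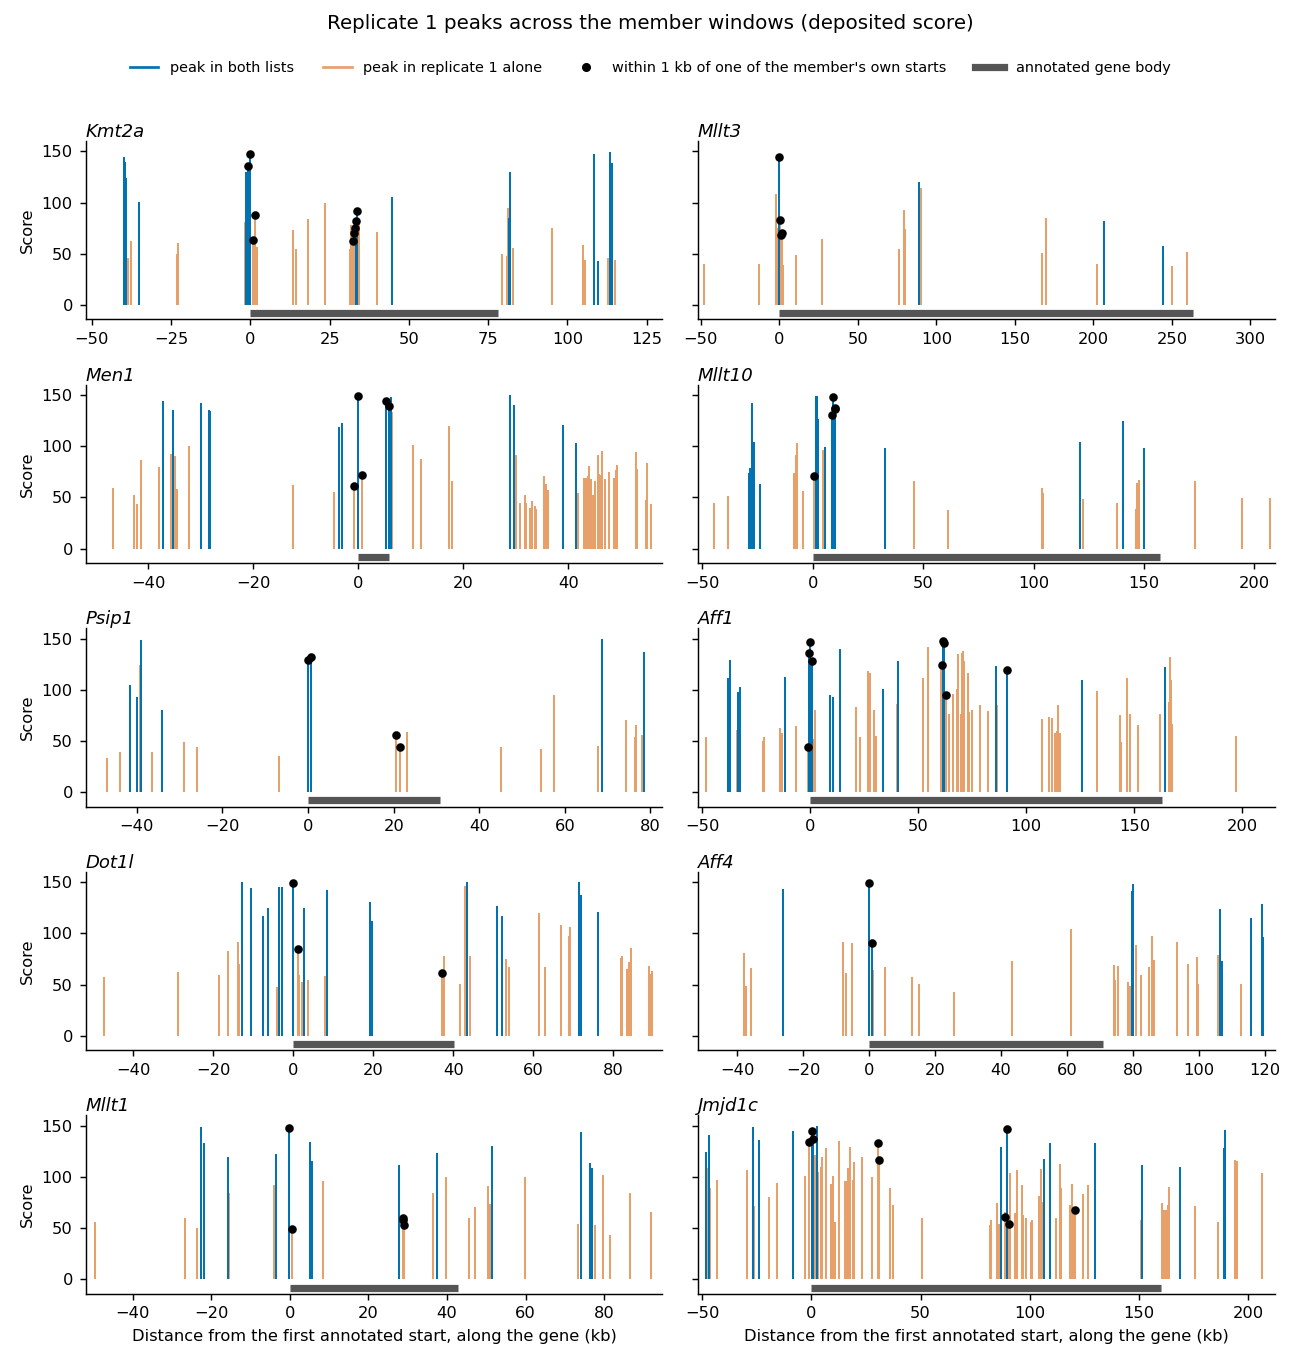
Deposited score of every replicate 1 peak in the window of each member, by distance in kb from the 5′ start along the gene, coloured by whether replicate 2 shared it, with dots at peaks within 1 kb of a start of the member. Dot1l and Mllt1 show shared peaks on either side of their start, Aff1 and Jmjd1c many peaks of replicate 1 alone inside the gene, and Aff4 nearly none that is shared inside it.

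Strong windows outside promoters are printed for 6 members, each of which holds a consensus match. They are the strongest shared windows, except at Aff1, where the strongest shared one held CTCF, IRF and MYB matches. Of the members left out here, the strongest shared windows of Kmt2a and Aff4 held a CTCF match. Those of Psip1 and Mllt10 held no match to any consensus searched. They are chr17:56958016-56958165 upstream of Mllt1, chr10:80752176-80752325 upstream of Dot1l, chr19:6304896-6305045 upstream of Men1, chr10:67098536-67098685 in Jmjd1c, chr4:87944496-87944645 in intron 2 of Mllt3 and chr5:103746916-103747065 in Aff1, a peak of replicate 1 alone. Each is on the strand of its gene in mm10, and capitals mark matches on either strand to the consensus sequences named after them.
Mllt1 upstream: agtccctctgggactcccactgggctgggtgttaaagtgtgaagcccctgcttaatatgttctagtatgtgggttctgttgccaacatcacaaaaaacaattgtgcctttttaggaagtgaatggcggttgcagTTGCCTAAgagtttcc
Dot1l upstream: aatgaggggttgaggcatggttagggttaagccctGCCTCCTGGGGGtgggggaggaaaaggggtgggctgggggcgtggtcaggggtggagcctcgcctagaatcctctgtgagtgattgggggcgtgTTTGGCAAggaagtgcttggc
Men1 upstream: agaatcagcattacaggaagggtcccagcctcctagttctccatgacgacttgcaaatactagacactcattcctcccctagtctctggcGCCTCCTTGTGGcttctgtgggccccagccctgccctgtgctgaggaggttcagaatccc
Jmjd1c intronic: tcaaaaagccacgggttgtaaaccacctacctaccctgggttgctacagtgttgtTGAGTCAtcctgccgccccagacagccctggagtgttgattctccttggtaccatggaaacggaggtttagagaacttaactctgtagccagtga
Mllt3 intron 2: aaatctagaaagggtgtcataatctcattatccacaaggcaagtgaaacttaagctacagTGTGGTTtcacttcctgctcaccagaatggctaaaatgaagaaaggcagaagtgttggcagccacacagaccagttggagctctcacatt
Aff1 intronic, replicate 1 alone: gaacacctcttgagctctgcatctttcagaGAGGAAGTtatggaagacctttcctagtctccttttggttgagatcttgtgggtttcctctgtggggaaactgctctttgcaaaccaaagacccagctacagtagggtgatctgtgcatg
The Mllt1 window holds a match to the C/EBP consensus TTNNGCAA, on the strand opposite to the one printed. The Dot1l window holds a C/EBP match and a match to the CTCF core consensus, and the Men1 window a CTCF match. The Jmjd1c window matches the AP-1 consensus TGANTCA, the Mllt3 window the RUNX consensus TGTGGTT and the Aff1 window the PU.1-type ETS consensus GAGGAAGT. These are matches of letters, and no factor was measured. Both ETS consensus sequences end in the same letters, but no place can match both.

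Over all 79 shared peaks outside promoters, the shares with a match were set beside those in the 42117 shared peaks outside promoters of the whole list. The CTCF consensus was found in 18 (22.8%, against 22.3%), C/EBP in 12 (15.2%, against 12.7%), AP-1 in 7 (8.86%, against 8.13%) and RUNX in 5 (6.33%, against 7.84%). The shares lay further apart for the PU.1-type ETS consensus, found in 2 (2.53%, against 7.48%), the GATA-factor consensus AGATAA, found in 2 (2.53%, against 5.36%), and the NFY consensus CCAATNNG, found in 6 (7.59%, against 4.52%). The median GC content of these windows was 50.7% in the member windows and 50.7% in the whole list. At counts this small a share of 2 in 79 is a weak basis for a difference, and none of these differences was tested.

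In the member windows, 142 of 516 replicate 1 peaks were shared, 27.5% (95% Wilson interval 23.8 to 31.5%, counting error only). That interval takes the peaks as independent, although they lie close together in windows whose own shares ran from 16.7% (Mllt3) to 50% (Mllt10). The whole list had 26.1%, and the difference was not tested. The 142 windows overlapped 140 replicate 2 peaks, since windows of a list can overlap each other. The other 16 of the 156 replicate 2 peaks in the member windows had no replicate 1 partner, while 91.9% of the whole replicate 2 list had one. All 16 overlapped a replicate 1 hotspot, a share that was not computed over the whole list. When replicate 1 was cut to its strongest 67438 peaks, as many as replicate 2 has, 68.0% of its peaks in the member windows were shared. That share was not computed over the whole cut list, so it does not set the members apart.

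The genes that work beside the members were open as well. Of 61 related genes in 4 groups, 60 had a shared promoter peak, against 58.2% of all protein-coding genes (12658 of 21755). All 18 COMPASS subunits and other H3K4 methyltransferases did, led by Setd1a (149 and 101), a methyltransferase of the same family, and Kdm6a (148 and 97), an H3K27 demethylase in COMPASS-type complexes. All 17 genes of the elongation machinery did, led by Supt5 (150 and 104), an elongation factor, and Ell (150 and 101), itself a partner of KMT2A in human leukemia. All 8 other genes of the DOT1L and menin machinery did, led by Jund (150 and 115), a transcription factor that binds menin, and Brpf1 (150 and 112), a histone acetyltransferase subunit. Among 18 other partners of human KMT2A fusions, 17 did, led by Casp8ap2 (150 and 98) and Picalm (148 and 96), and the only Tet1 promoter peak, with a score of 76, was in the replicate 1 list. Per 100 kb of window, the median number of shared peaks outside promoters was 4.64 for the members and 2.39, 2.80, 5.02 and 2.41 in these groups, in the order given, so the group of the DOT1L and menin machinery lay above the members. As counts per gene the medians were 8 for the members and 4, 5, 6.5 and 4.5 in the groups, with no allowance for the longer windows of the members.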

How the data were processed

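DNase-seq peaks and hotspots of 2 biological replicates, each of 2 libraries pooled by the authors, were analysed. Per the deposited text files, 1 alignment to mm10 served both libraries of a replicate. The peak caller was not given in the sources used here. Column 7 of the deposited peak lists is a score in whole numbers whose computation is not stated, and the hotspot value is, per the deposited file format, a −log10 q value that starts at a q of 0.05 and stops at 100. Read depth is unknown, so intervals cover counting error only.

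Repeated entries (48 in replicate 1 and 5 in replicate 2) were kept in a single copy. Replicate 1 windows that overlapped a replicate 2 peak by at least 1 bp were called shared, with the score of the strongest partner, and peaks were ranked within each list. Promoters reached 1 kb from any annotated start of a protein-coding gene in GENCODE M21, and windows 50 kb beyond the gene body. Exon and intron numbers follow the principal transcript. All 10 principal transcripts matched the reference genome exactly. Motifs were exact consensus matches on both strands of the 150 bp window. No chance test was run, because each replicate has 1 list and there is no control: members were set beside all coding genes by counts, shares and medians. The members, gene lists and motifs were chosen with earlier results of these data known. Named peaks were, for each member, the strongest shared promoter peak, every start cluster, the top 3 shared peaks beyond promoters and the top peak of replicate 1 alone. Related genes were named where they were the strongest 2 of a group or lacked a shared promoter peak. Alternatives covered overlap, score, list length, each list alone, promoter and window size, starts, nearest gene and noncoding starts. The erythroid marker list is not reported here. Counting was tested on simulated lists. Python 3.11.15, pandas 2.3.3 and scipy 1.17.1 were used.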

Additional observations from a re-analysis of the deposited data

How the results depend on the processing

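All 10 members had a shared promoter peak under each alternative of overlap, score, list length, promoter size and coding starts, and a promoter peak in either list alone; with the outermost start of each gene only, Mllt10 had no shared one and 9 were left. The share of all coding genes with one was 58.2% and moved to 56.1% with a reciprocal overlap of at least 50%, 51.8% with peaks at or above the median score of each list, 54.9% with lists of equal length, 56.1% and 61.9% with promoter windows of 0.5 and 2.5 kb, 53.2% with outermost starts and 56.5% with starts of coding transcripts. It was between 58.8% and 71.1% with either list alone. The 79 shared peaks outside promoters became 44 above the median score, 35 in gene bodies alone, 47 and 120 with 10 and 100 kb on either side, 46 by nearest start, and 81 to 379 with either list alone. The median per member, 8, became 4, 3.5, 4.5, 12, 5 and 8.5 to 30.5 in that order, and the median over all genes, 3, became 1, 0, 1, 6, 1 and 3 to 15. The shared percent of replicate 1 peaks in the member windows, 27.5%, moved to 31.9% above the median score and 68.0% with lists of equal length. Neither alternative share was computed over the whole list. Of 120 counts per member, 70 stayed within 1.5 times the reported value. Leaving out peaks at noncoding starts, an alternative chosen after seeing the data, moved no member's count by more than that. No paired analysis was possible because each replicate has 1 list and no groups are compared. Read depth is unknown, so a peak of replicate 1 alone is one not listed in replicate 2, and was not shown to be absent there.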

Other observations

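The exon-shaped hotspots of Kmt2a had few counterparts. Over all coding genes, 252 of 167216 exons from the third on (0.151%) were filled to 90% or more by replicate 1 hotspots that reached no more than 60 bp beyond either exon edge. That limit was chosen after the values were seen. Among the members these were 4 of 183 exons: exons 3 and 4 of Kmt2a, exon 9 of Mllt3 and exon 5 of Jmjd1c. Kmt2a was among 7 coding genes with at least 2 such exons, the others being Cntrl, Herc4, Plcb3, Sptbn4, Utrn and Vps13c. Exon 9 of Mllt3, of 72 bp, held a peak of score 38, and its hotspot ended 36 and 60 bp beyond the exon edges. The −log10 q of that hotspot was low, at 2.32, where values stop at 100. At exon 11 of Mllt3, the last, a hotspot began 31 bp ahead of the exon and covered its first 179 bp, with a peak of score 52. Only 4.24% of that exon was covered, so it is not among the 4. Exon 5 of Jmjd1c was filled by a hotspot that ended 15 and 10 bp beyond its edges. Exon 9 of Psip1, exon 20 of Aff4 and exon 4 of Jmjd1c were also filled in replicate 1. Their hotspots reached more than 60 bp beyond an edge. Replicate 2 had no hotspot over any of these Mllt3, Jmjd1c, Psip1 and Aff4 exons. At Dot1l and Mllt1, no hotspot base of either replicate fell in exons from the third on, although hotspots covered 8.35% and 8.92% of the introns from the second on in replicate 1. Over all coding genes the median exon cover was 0% as well in replicate 1, and the median intron cover 2.11%.

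Not every partner of human KMT2A fusions had a strong promoter peak. Afdn scored 96 and 26, Aff2 111 and 24, Arhgef12 112 and 28, Aff3 114 and 30 and Mllt6 105 and 37, with mean percentiles between 49.3 and 64.4, below the 84.4 of the weakest member. Aff3, a lymphoid member of the AF4 family, had 17 shared peaks outside promoters and Gas7 18, more than any of the 10 members, whose maximum was 14. Aff3 is 488 kb long, and per 100 kb of window it had 2.89, below the members' median of 4.64, while Gas7 had 5.40. Per 100 kb, the related genes Ell (18 peaks), Ring1 (16) and Setd1b (14) had 11.7, 15.4 and 11.1. Paf1 (13), Supt5 (12) and Jund (9) had 12.2, 9.69 and 8.85. All of these lay above the 8.40 of Mllt1, the highest of the members. These genes were picked after their values were seen.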
